A study of Zea mays with 4 samples.

Results

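The genes described here encode maize terpene synthases and ent-copalyl diphosphate synthases. They were taken by name, as the genes whose symbol or synonym is an1, an2, stc1 or tps followed by a number. 7 of the 1108 genes that the platform annotation names met that rule, namely an1, an2, tps1, tps6, stc1, TPS4 and TPS9, each with 1 probe set. None carried a name of a trehalose or tryptophan enzyme. The family was chosen by measured values of this same comparison, since an2 and tps6 had already stood out in their difference between the stages, so the stage differences of its members are given as descriptions, with no test.

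RNA came from the ear internode, the part of the stem carrying the ear, of field-grown plants of the inbred line F271, which received no treatment and were irrigated through a hot, dry summer. F271 is the less favourable parent in a cross with F288 that had been used to map loci for lignin content and cell wall degradability. 2 Affymetrix maize arrays were made at tassel emergence and 2 at early silking, from 290 to 440 ng of RNA. Nothing in the labels tells whether replicates were separate plants, so the spread between arrays may be technical.

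Terpene synthases turn prenyl diphosphates into the carbon skeletons of terpenoids. ent-Copalyl diphosphate synthases act on the C20 precursor geranylgeranyl diphosphate and open the route to ent-kaurene, from which plants make gibberellins and maize also makes antifungal diterpenoids called kauralexins. Sesquiterpene synthases use the C15 precursor farnesyl diphosphate, and their products in maize include volatiles released on herbivory and the precursors of the antifungal zealexins.

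At tassel emergence an1, an2 and tps6 gave a signal, and at early silking an1 and tps6 did. an2, the ent-copalyl diphosphate synthase linked to kauralexins, was above a log2 value of 4 at tassel emergence and below it at silking. tps6, a sesquiterpene synthase of the zealexin route, was 6.42-fold higher at silking. an1, the ent-copalyl diphosphate synthase of the gibberellin route, was 1.85-fold lower. With an RNA quality measure as a covariate its difference came to -0.033 on the log2 scale, but that measure itself separated the stages. The other 4 genes were at or near the bottom of the scale on all 4 arrays.

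**Figure D1:**
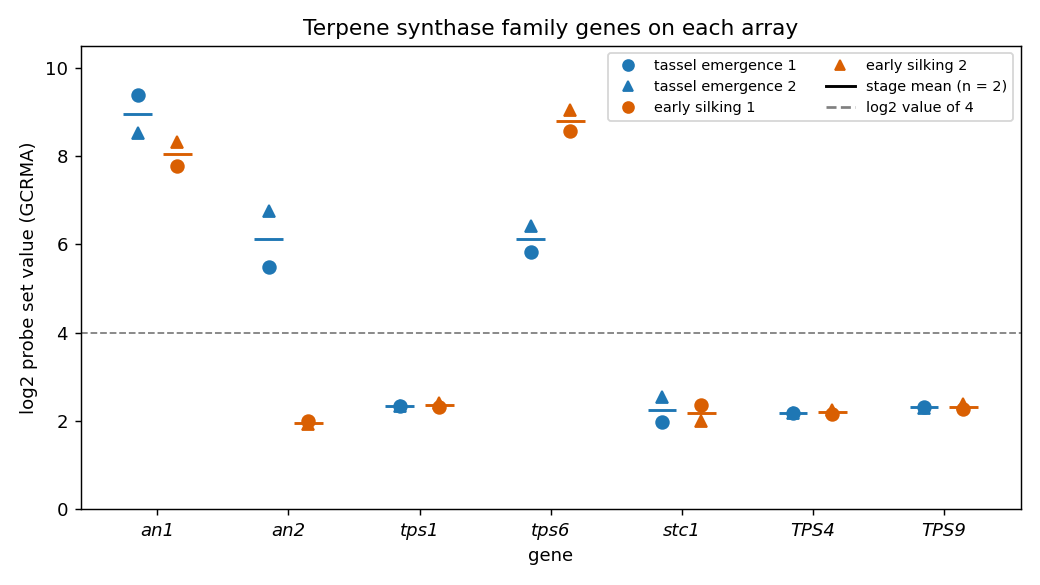
Log2 probe set values of the 7 genes on each of the 4 arrays. Circles are replicate 1, triangles replicate 2, horizontal bars the stage means of 2 arrays, and the dashed line the log2 value of 4 used as a floor. an2 lies above the floor only at tassel emergence, tps6 is higher at silking, and tps1, stc1, TPS4 and TPS9 stay between 1.98 and 2.54.

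The stem tissue was checked against marker genes. The secondary wall cellulose genes cesa10, cesa11, CesA12 and bk2 were all between 9.82 and 13.41 on every array, as log2 values, and 4 of 5 kernel storage genes were never above 4. All 10 photosynthesis genes, typical of green tissue, were above 4 on every array. The log2 of the summed level of the 4 wall genes went from 14.66 and 15.07 to 12.77 and 12.41, and that of the photosynthesis genes from 15.57 and 16.19 to 16.48 and 16.02. The kernel list was at 7.07 and 7.17 and then at 7.07 and 6.37. In it gz27 was the 1 gene above 4, with 6.85 and 6.97 and then 6.86 and 5.99. The part of these shifts in the differences below was not tested. In whole-tissue RNA, fewer cells of a type and less RNA per cell cannot be told apart.

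A gap between the 3' and 5' probe sets of control transcripts, which depends on RNA integrity and on amplification, also differed between the stages. Its mean over 4 maize transcripts was 3.90 and 2.29 on the log2 scale at tassel emergence and 1.40 and 1.86 at early silking. The poly-A spikes were at 8.19 and 7.78 and then at 8.65 and 9.26. Values of the family are therefore also given with the gap as a covariate. Both tassel arrays had a larger mean gap than either silking array, so a fit on 4 arrays cannot separate the mean gap from the stage. GAPDH, ubiquitin and EF1a each separated the stages in the same way. Cyclophilin did not, with 0.68 on tassel replicate 2 and 0.72 on silking replicate 2.

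Among the ent-copalyl diphosphate synthases, an2 (RefSeq symbol CPPS2) had log2 values of 5.50 and 6.76 on the tassel emergence arrays, against 2.001 and 1.92 on the early silking arrays. Both silking arrays were below both tassel arrays, and both were under the floor. Because the silking values are at the floor, the difference of -4.17 is not a measured fold, and an2 was at least 4.37-fold lower at silking, taking 4 as the highest level it could have had. That bound was 2.82-fold without tassel emergence replicate 2 and 6.78-fold without replicate 1. The stage means were 6.13 ± 0.90 (SD, n = 2) and 1.96 ± 0.06. The tassel arrays differed by 1.27 from each other, and 9.40% of the 10782 tested probe sets differed more between these arrays. an2 stood at the 44.7th and 52.3rd percentiles of the probe sets on the tassel arrays and at the 11.6th and 4.87th on the silking arrays. With the gap as a covariate the difference was -5.25.

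an1, named for the anther ear phenotype of its dwarf mutant, had 9.38 and 8.52 on the tassel arrays and 7.79 and 8.33 on the silking arrays. The stages did not overlap, though the nearest arrays, tassel replicate 2 and silking replicate 2, lay close together. The stage means were 8.95 ± 0.61 (SD, n = 2) and 8.06 ± 0.38, a difference of -0.89 with a limma SE of 0.40. Its 4 values fall in the same order as the mean 3' minus 5' gap of the arrays, which itself separated the stages. Any part of the gap in the difference of an1 was not tested. With that gap as a covariate the difference of an1 was -0.033, and without tassel emergence replicate 1 it was -0.45. an1 and an2 both were lower at silking, and between the tassel replicates they differed in opposite directions: an1 was higher on replicate 1 and an2 on replicate 2.

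tps1 is listed in RefSeq under the names KS, KS2.1 and eks1 as well, which are those of ent-kaurene synthase, the enzyme that follows copalyl diphosphate synthase. Its log2 values were 2.35 and 2.34 before silking and 2.32 and 2.41 at silking. The stages overlapped and no array was above 4, so no change in this gene could be measured in either direction.

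Of the sesquiterpene synthases, tps6 had log2 values of 5.83 and 6.41 before silking, against 8.57 and 9.04 on the early silking arrays. All 4 arrays were above the floor and the stages were well apart. Its stage means were 6.12 ± 0.42 (SD, n = 2) and 8.80 ± 0.33, a difference of 2.68 with a limma SE of 0.32. The replicates differed by 0.59 and 0.47, and 29.5% and 27.1% of tested probe sets differed more between the same arrays. On the arrays, tps6 moved from the 46.0th and 49.9th percentiles to the 68.2nd and 73.8th. The difference was 2.30 with the gap as a covariate.

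RefSeq's gene table (Zm-B73-REFERENCE-NAM-5.0) places tps6 next to tps11, with 0 protein-coding genes between them, and gives both the locus name GRMZM2G127087. tps11 is known as a near copy of tps6, so the tps6 probe set may bind transcripts of both, and the value is uncertain as to which gene it reports. The same table holds 24 genes whose names meet the rule, and the 17 that the platform annotation does not pair with a probe set were not analysed here. Those include tps10, tps11 and tps23, the last known for a volatile signal of damaged maize roots and leaves.

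stc1, sesquiterpene cyclase1, known for induction by caterpillar feeding, had log2 values of 1.98 and 2.54 on the tassel arrays, then 2.37 and 1.997 on the silking arrays. TPS4, which is also listed as TPS5 and belongs to a pair of synthases that each make many sesquiterpenes, had 2.19 and 2.18 and then 2.16 and 2.25. TPS9 had 2.31 and 2.31 and then 2.28 and 2.38. The stages overlapped in all 3 genes. In RefSeq, TPS9 and TPS4 are neighbours with 0 protein-coding genes between them, and neither gave a signal. Over the 4 genes without signal, tps1 included, values lay between the 8.90th and 32.5th percentiles of the arrays, and 60.2% to 61.0% of all probe sets on an array were above 4. A value in this range says that the probe set did not rise over the background, not that the transcript was absent.

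3 of the 7 genes thus passed the filter on low values, a log2 value above 4 on at least 2 arrays, and an2 passed through its tassel emergence arrays alone. The stages did not overlap in these 3, lower at silking in an1 and an2 and higher in tps6. Among all tested probe sets, 24.9% were lower without overlap and 34.9% higher, so that much is common on these arrays. 35 of 10782 tested probe sets had a higher difference than tps6. For an2, whose silking level was not measured, 340 had a lower difference than its bound of -2.13. Differences of the other probe sets were taken without a floor, so that count does not set like against like. an1 lay nearer the centre, with 12.8% of probe sets below it. The median difference of all tested probe sets was 0.10. Those ranks describe genes that had been taken up for their difference. No probe set on the array passed an adjusted p of 0.05 (limma, Benjamini-Hochberg over 10782 probe sets, 0.0% called, smallest adjusted p = 0.0864), and 2679, or 24.8%, had an unadjusted p under 0.05.

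**Figure D2:**
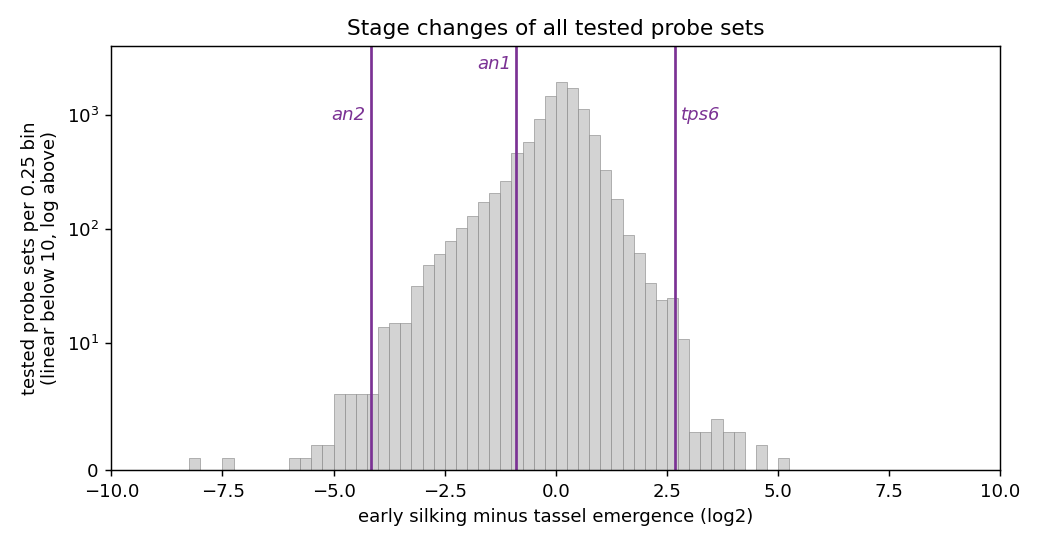
Histogram of early silking minus tassel emergence for the 10782 tested probe sets, in bins of 0.25 on the log2 scale, with a count axis that is linear below 10 and logarithmic above. Vertical lines mark an2 at -4.17, an1 at -0.89 and tps6 at 2.68, where the an2 line rests on silking values below the floor and its bound is -2.13.

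Genes that supply the precursors of these synthases were then compared. On the cytosolic side, fps1, a farnesyl diphosphate synthase, which makes the substrate of sesquiterpene synthases, had log2 values of 6.61 and 7.89 on the tassel arrays, against 4.61 and 3.83 on the silking arrays. The stages did not overlap, and fps1 was lower at silking (difference -3.03, SE 0.56, limma adjusted p = 0.107), the direction of an2 and opposite to that of tps6. Silking replicate 2 was under the floor, so the size of the fps1 difference was not measured. sqs1, squalene synthase, which draws on the same farnesyl diphosphate for sterols, had 7.42 and 7.33 and then 6.81 and 6.57, without overlap. smt1, a sterol methyltransferase, had 9.91 and 10.29 and then 10.25 and 9.79, with overlap.

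On the plastid side, dxs1 and dxr, which encode the entry enzymes of the methylerythritol phosphate route to geranylgeranyl diphosphate, had differences of 0.34 and -0.18, and their stages overlapped. isp1, taken in by its symbol, which is also used for an iron-sulfur protein, was at 0.30 without overlap. It may not belong to this route, though it is kept in the counts over all lists. d3 (CYP88A1), the P450 that oxidises ent-kaurenoic acid on the way to gibberellins, had 4.68 and 4.36 on the tassel arrays and 4.07 and 3.19 on the silking arrays. It was lower without overlap (limma adjusted p = 0.241), with silking replicate 2 under the floor, so the size of its difference was not measured.

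Carotenoid genes share geranylgeranyl diphosphate with an1 and an2. vp14, which cleaves carotenoids for abscisic acid, went from log2 values of 10.04 and 6.23 to 3.55 and 3.65. It was at least 17.5-fold lower by the floor, a bound that was 4.68-fold without tassel emergence replicate 1 and 65.6-fold without replicate 2. Like an2, vp14 passed the filter on low values through its tassel arrays alone. Its limma adjusted p of 0.165 rests on silking values under the floor and is not a test of the bound. pds1, phytoene desaturase, was higher by 0.58 without overlap, zds1 and crtRB1 had -0.17 and -0.23 with overlap, and psy2, a phytoene synthase, was near 2.1 on all arrays.

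Other defence-related genes did not share 1 direction. In the benzoxazinoid list, bx1, which makes indole for these nitrogen-containing defence compounds, had 10.33 and 11.04 on the tassel arrays and 9.37 and 7.59 on the silking arrays, and bx6, a later step, had 10.47 and 9.34 and then 8.42 and 8.49. Both were lower without overlap, with differences of -2.20 and -1.45. igl1, a lyase that releases free indole as a volatile, had 6.76 and 6.88 and then 6.84 and 6.86, with overlap. hpl1, hydroperoxide lyase of green leaf volatiles, was lower without overlap, with a difference of -1.86. The defence protein genes chn1, a chitinase, and pr5, a thaumatin-like protein, were higher by 0.68 and 0.86 without overlap, and wip1, a wound-induced inhibitor, and PR-1 overlapped. Of 9 tested jasmonate and ethylene genes, acco20, an ACC oxidase, was higher by 1.62, opr1 was at or near the floor with 4.12 and 5.31 and then 3.98 and 3.73, and 7 overlapped.

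Counted once each, 28 of the 30 genes in these lists were tested. With limma, 0 were higher and 0 lower at an adjusted p of 0.05, where the smallest adjusted p was 0.0864. 7 of 28 had an unadjusted p under 0.05, beside 24.8% of all tested probe sets. The stages did not overlap in 8 that were lower and 5 that were higher, beside 25.0% and 31.2% of the 800 named genes tested. Among the 8, vp14 and opr1 passed the filter on low values through their tassel emergence arrays alone, and vp14 is also among the 7. The median difference was -0.12, beside 0.10 over all tested probe sets.

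**Figure D3:**
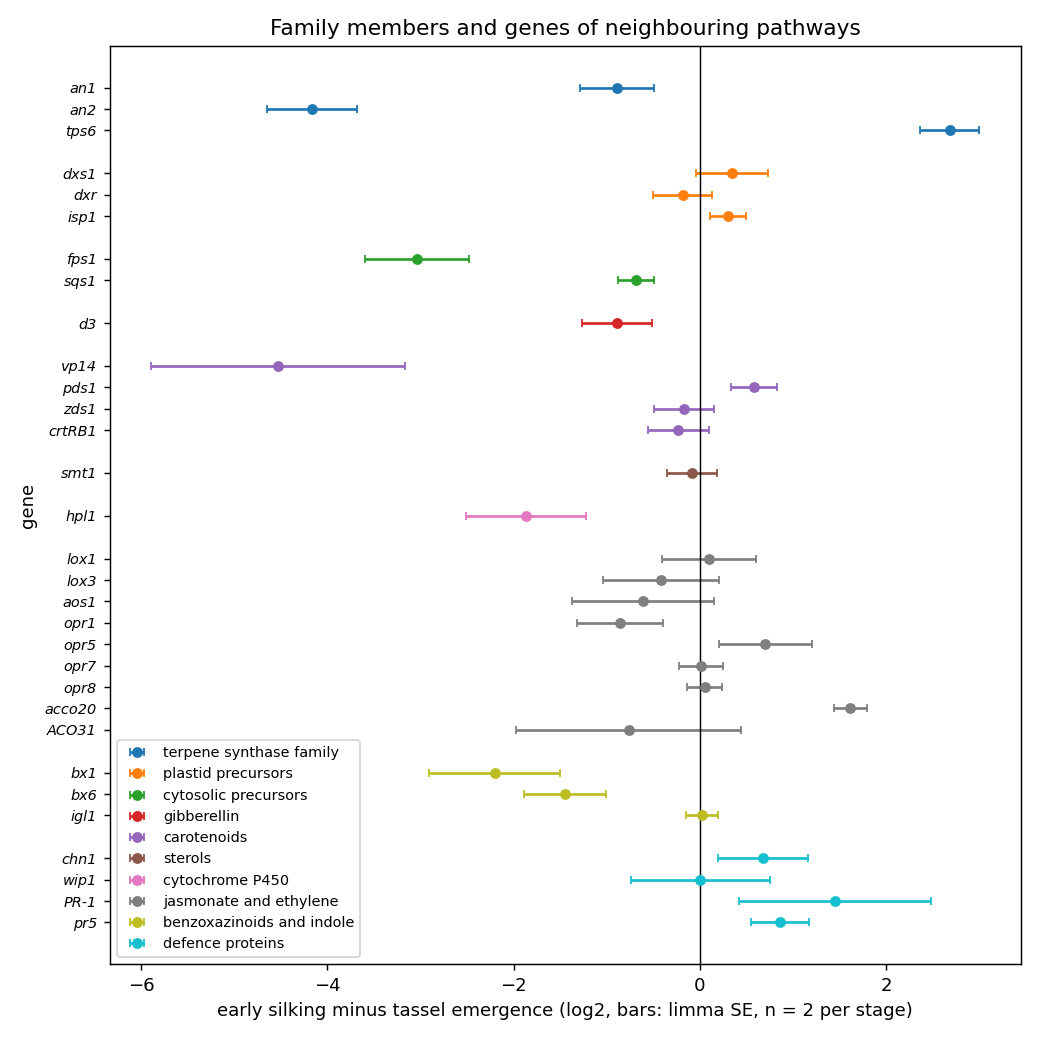
Early silking minus tassel emergence on the log2 scale for the 3 measured family members and the 28 tested genes of the other lists, with limma standard errors from 2 arrays a stage. tps6 and acco20 lie furthest to the right at 2.68 and 1.62, and vp14, an2 and fps1 furthest to the left at -4.53, -4.17 and -3.03, where vp14 and an2 rest on silking values below the floor on both arrays and fps1 on 1 of the arrays, so their order was not measured.

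The genes whose profiles were most like those of an2 and tps6 were found by the distance between log2 profiles over the 4 arrays, each centred on its own mean, among 797 other named genes. For an2 the nearest were gst6, a glutathione transferase, nar, hsp18f, a small heat shock protein, fps1 and IIG2, at distances of 1.03 to 1.43. gst6 went from log2 values of 6.96 and 8.32 to 4.68 and 3.38. Like an2, all 5 were higher on tassel emergence replicate 2 than on replicate 1, though hsp18f hardly differed (8.47 and 8.53). For tps6 the nearest were hda106, a histone deacetylase, LOC100037813, ys1, an iron-phytosiderophore transporter, HMT-3, a homocysteine methyltransferase, and acco20, at distances of 0.78 to 1.18. hda106 went from 2.83 and 3.03 to 5.53 and 5.07. All 5 were higher on silking replicate 1 than on replicate 2, by little in acco20 (14.00 and 13.94), whereas tps6 was higher on replicate 2. Several of these values lie under the floor, namely an2 on both silking arrays, gst6, hsp18f and fps1 on 1 silking array each, and hda106, LOC100037813 and ys1 on both tassel arrays, so the distances and their order rest in part on levels that were not measured. With 4 arrays, the likeness of these profiles is mainly that of their stage difference.

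**Figure D4:**
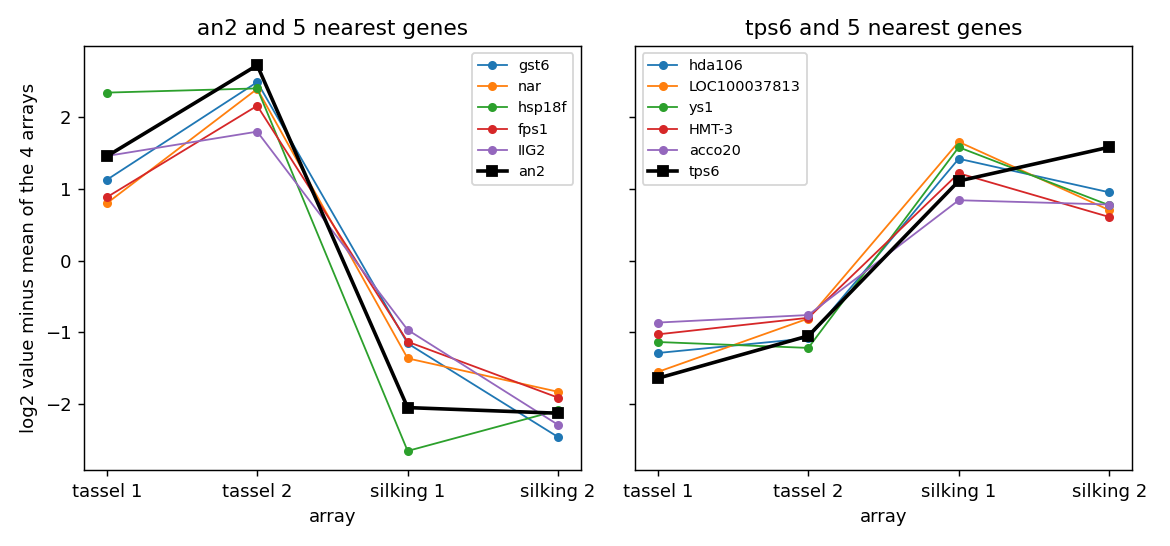
Log2 values minus the mean of the 4 arrays for an2 (left, black squares) and tps6 (right, black squares) with the 5 nearest named genes of each (coloured circles). Lines join the values of a gene and carry no order between replicates. fps1 lies among the genes nearest to an2, and acco20 among those nearest to tps6.

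Under the processing choices tried, the difference of tps6 ran from 2.30 to 2.98 and that of an2 from -5.25 to -2.13, where the upper end of an2 is the bound at the floor. That of an1 ran from -1.32 to -0.033, the last with the gap as a covariate and an SE of 0.32. Gap and stage cannot be told apart on these arrays, so whether an1 changed apart from the gap was not measured.

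**Figure D5:**
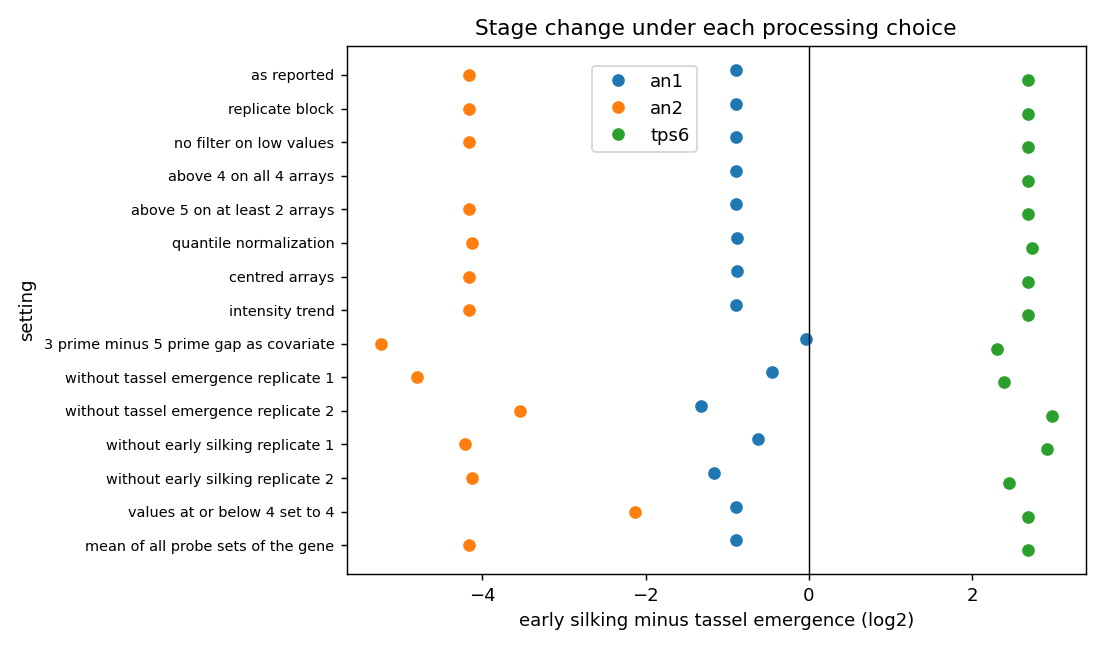
Early silking minus tassel emergence on the log2 scale for an1, an2 and tps6 under each processing choice, 1 point per choice. an2 is always to the left of 0 and tps6 to the right. an1 reaches -0.033 with the 3' minus 5' gap as a covariate, and an2 has no point where a value above 4 on all 4 arrays was required.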

How the data were processed

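The authors deposited log2 probe set values of 4 arrays made with GCRMA, a background correction by probe sequence with normalization between arrays, per the submitters' processing notes. Its version is not given in the sources used here, while their range showed a log2 scale. Of 17734 probe sets, 113 controls were left out, and 10782 with a log2 value above 4 on at least 2 arrays were tested. The platform annotation named 1 gene for 1452 probe sets and several for 1, leaving 16168 unnamed. The RefSeq table, used for names and neighbours alone, held 1060 of the 1108 genes. The probe set with the highest mean stood for a gene.

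The stage difference was estimated by limma (version 3.58.1, run under R 4.3.3, eBayes, two-sided, Benjamini-Hochberg), without a replicate term. The fit was run on data simulated from its own fitted variances with independent noise. That check cannot tell how the fit does where these arrays depart from its model. Members and lists were chosen with earlier results of these data known. The annotation held symbols only, so the list patterns found 10 genes and 20 were added by symbol. Genes named in the lists were the 2 largest rises and falls without overlap, and for an2 and tps6 the 5 nearest profiles; other list genes were named after their values were seen. The gap used cyclophilin, GAPDH, ubiquitin and EF1a. Actin was left out because its probe sets at 1 or both ends were below 4 on at least 1 array.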

Additional observations from a re-analysis of the deposited data

How the results depend on the processing

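With 2 arrays a stage, signal over background limits an2 at silking and all of tps1, stc1, TPS4 and TPS9. With the 3' minus 5' gap as a covariate, the differences were -0.033 for an1, -5.25 for an2 and 2.30 for tps6; the cause was not tested. Values at or below 4 set to 4 gave -2.13 for an2, by construction. The fold bounds without each tassel array, added after seeing the data, were 2.82 and 6.78 for an2 and 4.68 and 65.6 for vp14. Leaving out each array in turn gave -1.32 to -0.45 for an1, -4.80 to -3.53 for an2 and 2.39 to 2.98 for tps6. The filters and an intensity trend cannot change a gene's own difference, and a value above 4 on all 4 arrays left out an2. Centring and quantile normalization could, and moved an1, an2 and tps6 by less than the spread between replicates. Each gene had 1 probe set, so averaging probe sets changed nothing.

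The counts past an adjusted p of 0.05 were 0 for all tested probe sets and for the list genes under each of these alternatives, leaving out each array included. The replicate number as a block left the differences at -0.89, -4.17 and 2.68, as it must with both numbers in each stage, and both counts at 0. Same-numbered arrays deviated from their stage means in opposite directions (r = -0.42 across probe sets). Crossed pairs, chosen after seeing the data, gave 357 probe sets and 3 list genes. A block picked from those same deviations takes them out of the residual spread, so these counts cannot be read as stage changes.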
